A study of Homo sapiens with 36 samples.

Results

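The genes described here are 5 that handle carbon dioxide, bicarbonate and acid: the carbonic anhydrases CA9, CA12 and CA2 and the sodium bicarbonate cotransporters SLC4A4 and SLC4A7. Binding of tagged hypoxia-inducible factor (HIF) α subunits at these genes was read from lists of Cut&Run peaks, the places where an antibody against the V5 tag released DNA fragments more often than control IgG did. A peak was assigned to a gene when its summit, the base with the most fragments, lay in the gene body or within 50 kb on either side. Of 213711 peaks in 18 lists, 223 met this rule. Peaks that overlapped between at least 2 libraries were merged into 25783 regions, of which 26 lie at the 5 genes: 12 at CA12, 5 at CA9, 5 at SLC4A4, 2 at CA2 and 2 at SLC4A7. Another 21 peaks at these genes were seen in 1 library only.

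Every library came from 786-O cells, a line from a clear cell renal cell carcinoma (ccRCC) without functional VHL, the protein that marks HIF-α for destruction, and without functional HIF-1α. Wild-type (WT) 786-O cells carry no tag and show what the antibody releases without its target. The HIF-2α KIN line is a single clone, A31, in which both endogenous HIF-2α alleles carry V5 and HaloTag at the N-terminus. Another 4 stable lines were made in WT cells, which keep their own untagged HIF-2α, and express a V5-HaloTag fusion from the weak L30 promoter: HIF-2α, HIF-1α, or a chimera. The HIF-2α/1α chimera joins residues 1 to 365 of HIF-2α, which hold the domains for DNA binding and dimerization (together DBD here), to residues 364 to 826 of HIF-1α, the mostly disordered C-terminal region (IDR). The HIF-1α/2α chimera joins residues 1 to 363 of HIF-1α to residues 366 to 870 of HIF-2α. Each line has 3 anti-V5 libraries, so that 15 libraries are tagged and 3 are WT. The 18 IgG libraries enter only as the controls of the peak calls. The sources used here do not say whether replicates were separate cultures, so p-values measure the spread between these libraries, which may be technical.

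Carbonic anhydrases convert carbon dioxide and water to bicarbonate and a proton. CA9 and CA12 are anchored in the plasma membrane with their catalytic domain outside the cell, CA2 works in the cytosol, and SLC4A4 (NBCe1) and SLC4A7 (NBCn1) carry sodium and bicarbonate across the membrane. Together they let a glycolytic cell export acid and keep its interior alkaline. CA9 is a classical hypoxia marker that is strongly expressed in VHL-deficient ccRCC. HIF-α and HIF-1β bind as a dimer to the hypoxia response element (HRE), searched here as ACGTG and GCGTG on both strands.

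The sequences that carry the results are given here, all on the plus strand of hg38, with HRE matches in capitals. The palindrome CACGTG holds 1 match on each strand. The CA9 promoter is RefSeq's 300 bases around the start (GRCh38.p14, chr9:35673678-35673977, 250 before and 50 after), and its single match is centred 16 bp upstream of the transcription start site and 64 bp from the summit of the region called there.
CA9 promoter: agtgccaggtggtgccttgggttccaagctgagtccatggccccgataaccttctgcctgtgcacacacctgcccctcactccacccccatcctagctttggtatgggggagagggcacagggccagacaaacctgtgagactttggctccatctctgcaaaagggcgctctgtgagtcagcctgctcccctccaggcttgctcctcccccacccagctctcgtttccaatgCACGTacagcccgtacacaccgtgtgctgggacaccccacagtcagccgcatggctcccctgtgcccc
Beside it stands the summit of the other strong region of the CA9 window, chr9:35657862-35657981, which lies 16006 bp upstream of CA9 and holds 3 matches.
CA9 upstream region: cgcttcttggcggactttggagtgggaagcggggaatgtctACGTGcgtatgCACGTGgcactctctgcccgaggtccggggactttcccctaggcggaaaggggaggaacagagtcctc
The strongest CA12 region is represented by chr15:63372500-63372799 in the second intron, where the match nearest to the summit lies 100 bp away. CA12 is read from the minus strand.
CA12 intron region: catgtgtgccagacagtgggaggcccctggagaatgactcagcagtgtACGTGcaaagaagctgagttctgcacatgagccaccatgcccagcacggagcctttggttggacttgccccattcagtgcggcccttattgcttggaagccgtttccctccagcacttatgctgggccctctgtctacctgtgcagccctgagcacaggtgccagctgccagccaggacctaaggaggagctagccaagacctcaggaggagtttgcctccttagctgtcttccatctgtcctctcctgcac
The CA12 promoter region, chr15:63381037-63381336 in the first intron, holds 6 matches in 300 bases, 5 of them close together.
CA12 promoter region: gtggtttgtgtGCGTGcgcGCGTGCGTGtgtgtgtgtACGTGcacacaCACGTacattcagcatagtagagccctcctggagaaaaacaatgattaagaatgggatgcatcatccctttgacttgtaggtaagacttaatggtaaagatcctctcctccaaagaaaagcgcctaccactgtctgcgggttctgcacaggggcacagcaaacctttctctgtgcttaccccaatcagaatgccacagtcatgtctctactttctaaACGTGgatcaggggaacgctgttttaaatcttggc
In SLC4A4, chr4:71231211-71231510 has 3 matches, the nearest 80 bp from the summit.
SLC4A4 intron region: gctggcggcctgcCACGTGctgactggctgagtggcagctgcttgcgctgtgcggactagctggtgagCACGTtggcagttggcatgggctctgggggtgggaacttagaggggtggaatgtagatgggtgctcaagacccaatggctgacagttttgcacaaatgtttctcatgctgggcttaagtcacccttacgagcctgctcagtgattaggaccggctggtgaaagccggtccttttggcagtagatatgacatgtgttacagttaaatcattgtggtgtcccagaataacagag
The main region of the SLC4A7 window, chr3:27534094-27534213, has no HRE match, and its capitals mark 2 copies of TGAGTCA, which with its reverse complement TGACTCA is the site of AP-1 factors.
SLC4A7 upstream region: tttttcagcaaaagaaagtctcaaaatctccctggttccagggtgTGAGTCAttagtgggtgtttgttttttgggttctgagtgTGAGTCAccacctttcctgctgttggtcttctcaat

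An HRE lay within 50 bp of the summit in 3 of the 26 regions, against 24.1% of all regions, and within 150 bp in 14 of 26, or 53.8%, against 58.7%. It lay anywhere in the region in 21 of 26, or 80.8%, against 76.0%. The 3 regions with a match within 50 bp were the CA9 upstream region, a CA12 window region next to the start of APH1B, and a weak region of SLC4A4. An AP-1 site lay within 50 bp of the summit in 2 of 26 regions, or 7.69%, against 8.29% of all regions. RefSeq's table of 300-base promoters has 9 entries for the member genes, of which 5 hold an HRE, and 48.4% of its 35116 entries do. These shares describe letters in windows and were not tested.

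The depth of each library was recovered from the lists themselves as the mean number of fragments per base over the genome, and ranged from 0.2409 to 0.6246. Tagged lists held 3984 to 20808 peaks and the WT lists 392, 9508 and 743. Longer lists reach weaker peaks, and the absence of a call does not show that a site was free of the protein. All summit heights below are fragments at the summit as multiples of the genome-wide mean of the library, and a percentile is the share of the peaks in the same list with a smaller −log10 p. Intervals on these heights were not set, since fragments without molecular identifiers are not independent molecules.

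WT libraries called 0, 2 and 1 of the 26 regions, on average 3.85% of them, against 5.30% of all regions in windows of protein-coding genes. The tagged lines called on average 8.00 ± 2.65 (HIF-2α KIN), 11.7 ± 4.73 (HIF-2α), 13.7 ± 2.08 (HIF-2α/1α), 14.3 ± 0.577 (HIF-1α) and 14.7 ± 4.16 regions (HIF-1α/2α; SD, n = 3 libraries each). Expressed as a share of the 26 regions these were 30.8%, 44.9%, 52.6%, 55.1% and 56.4%. Among all 22239 regions in windows of protein-coding genes the shares were 23.5%, 35.0%, 56.8%, 58.1% and 45.9%. At the 5 genes, as elsewhere, the HIF-2α KIN line had the fewest calls of the tagged lines.

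**Figure D1:**
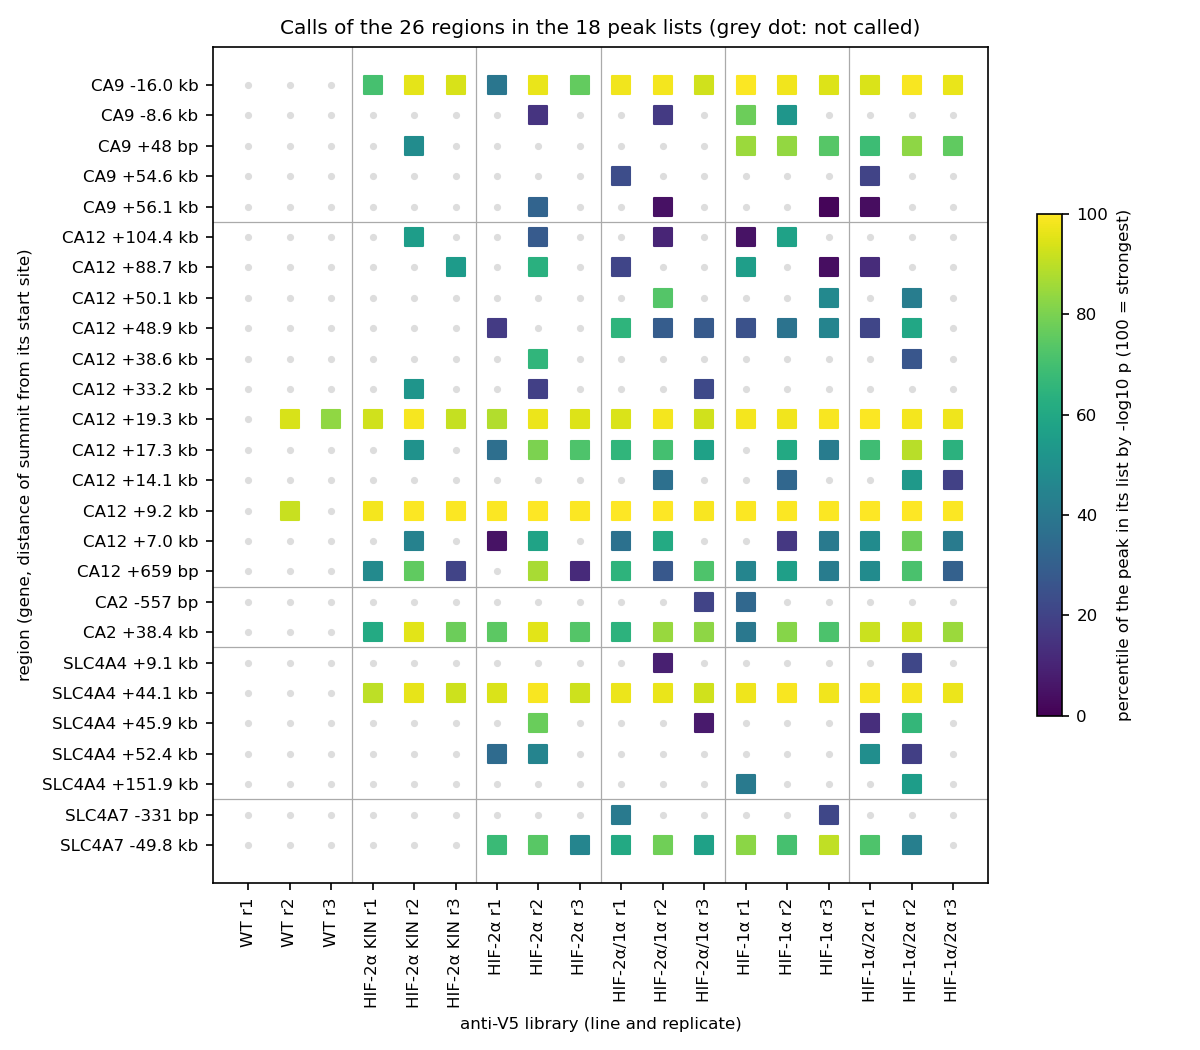
Calls of the 26 regions in each of the 18 anti-V5 lists, with the line and replicate on the x axis and the region on the y axis, named by gene and distance from its start site. A coloured square is a call, its colour the percentile in that list from 0 to 100, and a grey dot means not called. The CA9 region at +48 bp is filled in the 6 libraries with the HIF-1α DBD and in HIF-2α KIN replicate 2.

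In the comparison with WT, 3 of the 26 regions were called in all 15 tagged libraries and in 0 of 3 WT libraries: the CA9 upstream region, the SLC4A4 intron region and a region downstream of CA2. This is the smallest p-value the design allows (Fisher's exact test, two-sided, p = 0.00123, adjusted p = 0.0263 over all regions), and 4.66% of all regions reached it. Without any 1 of the WT libraries no region at these genes passed. The smallest possible p is then larger, so this loss does not bear on single regions. The CA12 intron region was called in 15 tagged libraries and 1 WT library, whose summit lay 392 bp from that of the region (adjusted p = 0.166, exact). A second region of the same intron, 19308 bp into CA12, was called in 15 tagged and 2 WT libraries (adjusted p = 0.639, exact). Of all 20007 protein-coding genes, 16.7% had a peak in their window in all 15 tagged libraries, and 4 of the 5 members did, SLC4A7 being the exception with 12. No member had a promoter region, meaning a summit within 1 kb of a start site, that was called in all 15 tagged and 0 WT libraries, which 2.03% of protein-coding genes had.

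**Figure D2:**
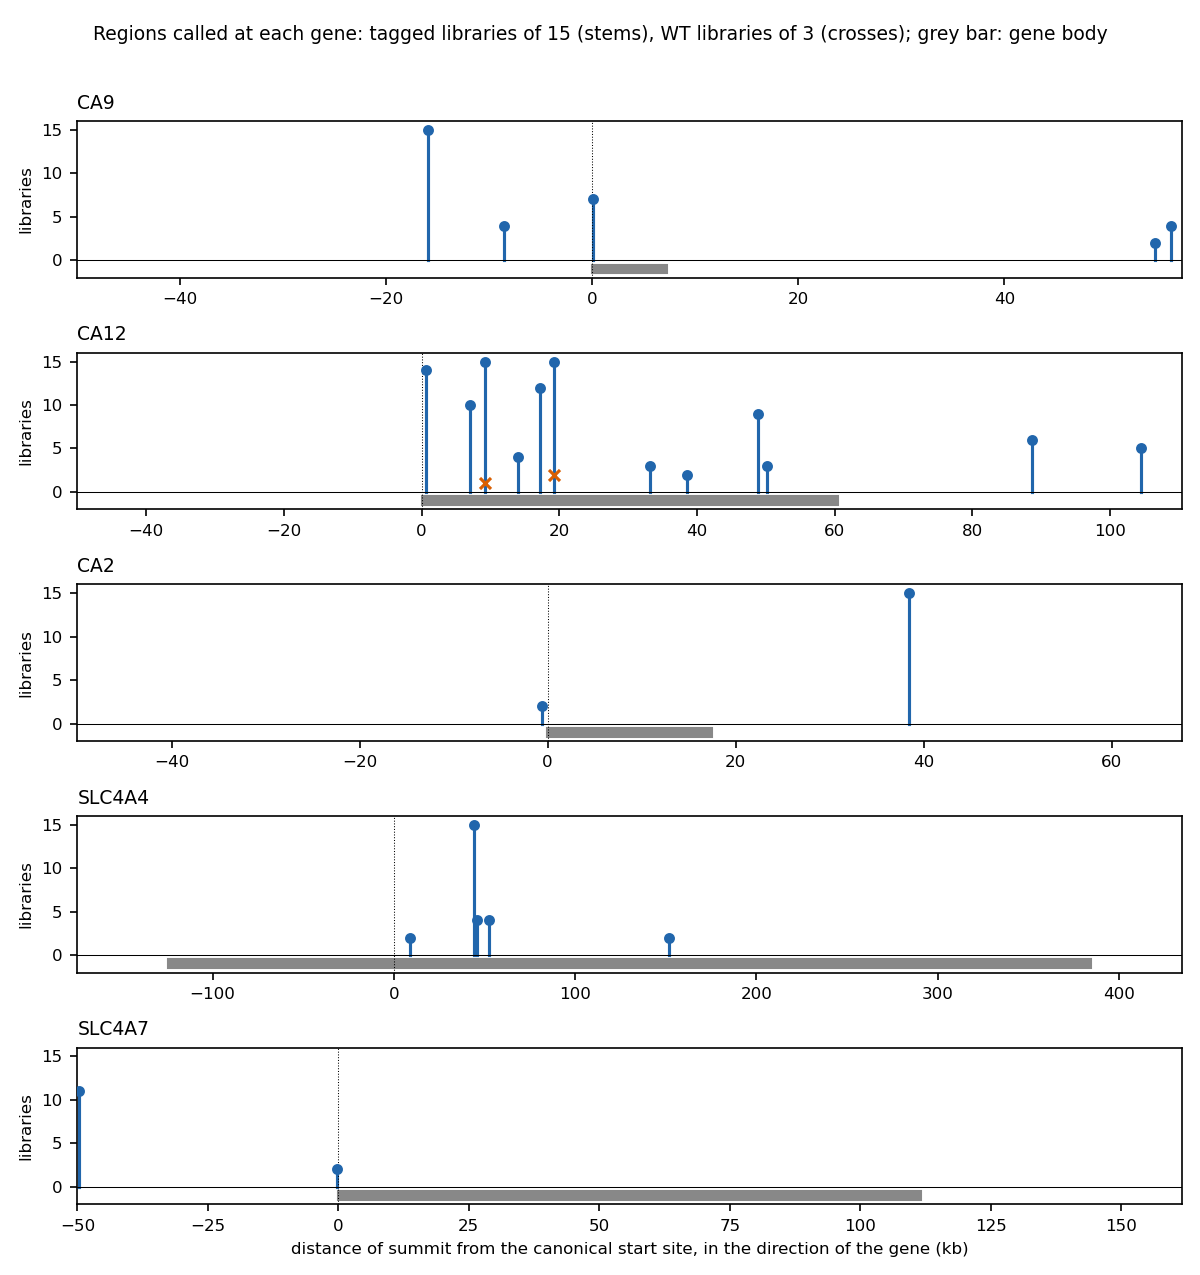
Position of each region along the 5 genes, as the distance of its summit from the canonical start site in kb, with the gene body as a grey bar. Stems give the number of tagged libraries of 15 that called it and crosses the number of WT libraries of 3. Stems reach 15 at CA9, CA12, CA2 and SLC4A4, and the highest at SLC4A7 is 11.

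CA9, the membrane carbonic anhydrase whose promoter HRE is a textbook HIF site, was called at its promoter in every library with the HIF-1α DBD and in none of the exogenous libraries with the HIF-2α DBD. The region (chr9:35673555-35674772) covers the start site, with its summit 48 bp downstream in coding exon 1. The summit held 25, 46 and 20 fragments in the HIF-1α libraries and 16, 26 and 22 in the HIF-1α/2α libraries. As multiples of the genome-wide mean these were 61.2, 120 and 67.5 for HIF-1α and 39.0, 91.6 and 72.7 for HIF-1α/2α. Both lines overlapped, and their mean percentiles were 81.0 ± 6.22 and 75.7 ± 7.10 (SD, n = 3). The endogenous HIF-2α of the KIN line gave 1 call, in replicate 2, with 8 fragments at 29.0 times the mean and a percentile of 48.3. WT, HIF-2α and HIF-2α/1α gave none.

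The CA9 promoter was the one region of the 5 genes whose calls differed with the DBD before adjustment, 6 of 6 libraries against 0 of 6 (Fisher's exact test, two-sided, p = 0.0022, the smallest possible, adjusted p = 1). Among all 25285 regions tested, 0.486% were called more often with the HIF-1α DBD at an unadjusted p under 0.05, and 0% passed after adjustment (142 regions passed in either direction before it). The all-or-none pattern was shared by 17 regions, or 0.0672%, and the reverse pattern by 4. With the smallest possible p this large, many more regions would have to share it for any to pass the adjustment. By median percentile CA9 stood 6th of the 17, at 79.2, and it was 1 of 4 promoters among them, beside RAPGEF6, CBX5 and MTERF4. In the 8 tagged lists without the CA9 promoter, 13.3% to 30.1% of the peaks had summits below 29.0 times the mean. Summits as low as the one in the KIN line were thus called at other sites of these lists. That height stands for 7.36 to 18.1 fragments there, and a call also depends on the local background. Whether the CA9 promoter would have been called at that height was not tested. When every longer list was shortened to its strongest peaks, as many as in the shortest tagged list, 4 calls remained with the HIF-1α DBD against 0 (p = 0.0606, exact).

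**Figure D3:**
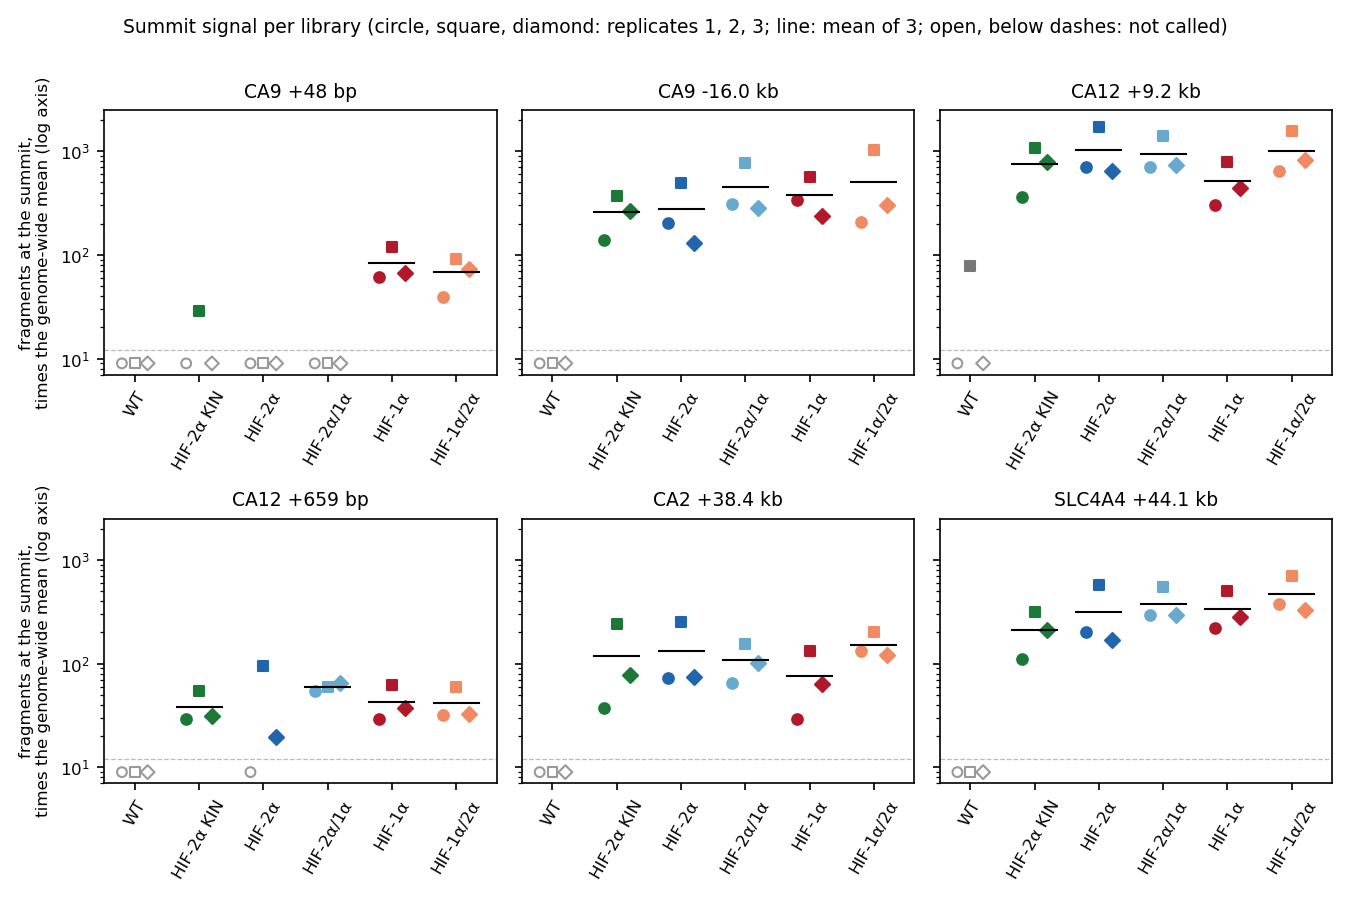
Height of the summit in each library as a multiple of the genome-wide mean, on a log axis, for 6 of the named regions. Circles, squares and diamonds are replicates 1, 2 and 3, lines are means of 3 called libraries, and open symbols below the dashes are libraries without a call. At the CA9 promoter the filled symbols of HIF-1α and HIF-1α/2α lie between 39.0 and 120, and the single one of HIF-2α KIN at 29.0.

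The CA9 upstream region (chr9:35657157-35659846) was stronger than the promoter in every library that called both. Its summit lies in the non-coding exon of RMRP, which encodes the RNA of RNase MRP, 95 bp from the RMRP start and 368 bp from the start of CCDC107, so it is part of the CA9 window by distance alone. Fold enrichment over the local background was 4.43, 23.0 and 21.2 for HIF-2α KIN, 2.55, 29.0 and 8.84 for HIF-2α, 51.6, 65.2 and 18.3 for HIF-2α/1α, 46.2, 33.4 and 22.5 for HIF-1α and 20.9, 62.1 and 39.6 for HIF-1α/2α. HIF-2α replicate 1 was the lowest of the 15 and HIF-2α/1α replicate 2 the highest. After log2 values were centred on the median of each library, HIF-1α exceeded HIF-2α by 1.64 ± 0.503 (SE, limma, adjusted p = 0.0440), among 3.47% of the regions tested that differed between these lines. This rested on HIF-2α replicate 1, without which the difference was 0.83 (limma, adjusted p = 0.505). The IDR difference of the region, HIF-2α minus HIF-1α, was −0.71 (95% interval −1.41 to −0.0034, limma, adjusted p = 0.287) and the DBD difference −0.93 (−1.64 to −0.23, limma, adjusted p = 0.129). Neither passed, and without HIF-2α replicate 1 they were −0.31 (limma, adjusted p = 0.740) and −0.52 (limma, adjusted p = 0.536). On summit height the difference was 0.40 (limma, adjusted p = 0.287), and HIF-2α replicate 1 had 66 fragments over a local background of 25.2 fragments, the highest of the 15.

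The other 3 regions of the CA9 window were called in 2 to 4 tagged libraries. They lie next to the start of ARHGEF39 and in an intron of TLN1.

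CA12, the other membrane carbonic anhydrase, had the strongest peak of the 5 genes. The intron region (chr15:63371333-63373655), 9196 bp into the gene, ranked from 15 to 122 of its list in 14 tagged libraries and 134 in HIF-1α replicate 2. Its summit stood at 362, 1086 and 797 times the mean for HIF-2α KIN and 703, 1712 and 651 for HIF-2α. It stood at 703, 1388 and 742 for HIF-2α/1α, 301, 794 and 445 for HIF-1α and 644, 1586 and 819 for HIF-1α/2α. Replicate 2 was the highest of the 3 in each of these lines, and the lines overlapped on this scale. WT replicate 2 called it at 78.5 times the mean, below all tagged libraries. The summit of that WT peak lay 392 bp from that of the region, and the tagged summits lay within 43 bp.

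By fold enrichment the CA12 intron region did not differ detectably with either part of the protein. The lines with the HIF-2α IDR exceeded those with the HIF-1α IDR by 0.12 (log2, 95% interval −0.58 to 0.81, limma, adjusted p = 0.905), and the DBD difference, HIF-2α minus HIF-1α, was 0.28 (limma, adjusted p = 0.777). The first interval allows a difference of up to 0.81. On summit height, which leaves out the local background, the region was higher with the HIF-2α IDR by 0.75 ± 0.121 (SE, log2, limma, adjusted p = 8.93e-05). The centred height was 2.76 ± 0.09 for HIF-2α, 2.49 ± 0.06 for HIF-1α/2α, 2.15 ± 0.13 for HIF-2α/1α and 1.59 ± 0.10 for HIF-1α (SD, n = 3), with no overlap between the HIF-2α IDR libraries (2.43 to 2.85) and the HIF-1α IDR libraries (1.52 to 2.31). Of all regions 43.6% differed with the IDR on that scale, against 2.42% by fold enrichment, so CA12 was one of many regions past the threshold on summit height. With the DBD the height differed by 0.42 (limma, adjusted p = 0.0143), where 30.6% of regions passed.

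The second intron region of CA12 (chr15:63361719-63363882), 19308 bp into the gene, was called in WT replicates 2 and 3 at 136 and 104 times the mean. In the tagged lines its mean height was 281 ± 181 (HIF-2α KIN), 289 ± 185 (HIF-2α), 375 ± 211 (HIF-2α/1α), 400 ± 185 (HIF-1α) and 593 ± 276 (HIF-1α/2α; SD, n = 3). The lowest tagged library, HIF-2α KIN replicate 1 at 124, lay below WT replicate 2, so tagged and WT values overlapped.

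The CA12 promoter region (chr15:63379566-63382147) was called in 14 of 15 tagged libraries, all but HIF-2α replicate 1, and in 0 WT libraries (adjusted p = 0.0657, exact). Its heights were modest, 19.7 to 95.1 times the mean, and its percentiles ran from 12.1 to 86.9. Both extremes came from HIF-2α, in replicates 3 and 2. Its summits lay within 150 bp of that of the strongest peak in 11 of the 14, the rest up to 976 bp away. One more region of the second intron, 17283 bp into the gene, was called in 12 tagged libraries and 0 WT libraries with a median percentile of 64.7. The other 8 regions of the CA12 window were called in 2 to 10 tagged libraries, with a highest percentile of 77.7.

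CA2, the cytosolic enzyme, was called near its start in only 2 libraries, HIF-2α/1α replicate 3 and HIF-1α replicate 1 at 34.2 and 39.2 times the mean, 557 bp upstream of CA2 and 14 bp from the start of the antisense gene CA3-AS1. The strong region lies 38437 bp downstream of the CA2 start, beyond the end of the gene, on chromosome 8 (hg38, 85501701 to 85503233), with an HRE 120 bp from the summit. Its fold enrichment was 9.11, 34.3 and 13.4 for HIF-2α KIN, 12.8, 67.4 and 11.7 for HIF-2α, 7.84, 23.3 and 19.9 for HIF-2α/1α, 7.20, 16.1 and 12.9 for HIF-1α and 25.6, 36.9 and 17.1 for HIF-1α/2α. HIF-1α replicate 1 was the lowest and HIF-2α replicate 2 the highest, and the lines overlapped.

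Centred per library, the CA2 region was higher with the HIF-2α IDR by 1.11 ± 0.345 (SE, log2 fold, limma, adjusted p = 0.0566), which missed the threshold. The 6 libraries with the HIF-2α IDR spanned 0.13 to 1.45 and those with the HIF-1α IDR −1.39 to 0.22. With the other measures of strength the difference passed: 0.92 on summit height (limma, adjusted p = 0.000294), with groups that did not overlap (−0.45 to 0.20 against −1.84 to −0.77), and 1.10 on the normal score of the within-library rank (limma, adjusted p = 0.00507). Of all regions 43.6% passed for the IDR on summit height and 535 of 2566 by rank, against 2.42% by fold enrichment. With a replicate block the CA2 difference passed too (limma, adjusted p = 0.0368), among 109 of 2566 regions. Without centring it was weaker, at 0.82 (limma, adjusted p = 0.409). With single libraries left out it was lowest, at 0.88, without HIF-2α/1α replicate 1 (limma, adjusted p = 0.200). It was highest, at 1.28, without HIF-2α/1α replicate 3 (limma, adjusted p = 0.0414). The DBD difference was 0.08 (limma, adjusted p = 0.938), where 3.2% of regions passed in the fold.

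SLC4A4, the electrogenic sodium bicarbonate cotransporter, had its strong region in an intron (chr4:71229452-71232074), 44102 bp from the canonical start and 4668 bp upstream of the nearest alternative start of the gene. Fold enrichment was 19.7, 35.2 and 20.4 for HIF-2α KIN, 34.3, 160 and 25.7 for HIF-2α, 34.8, 46.3 and 17.0 for HIF-2α/1α, 25.0, 107 and 40.1 for HIF-1α and 89.7, 89.1 and 45.4 for HIF-1α/2α. Its percentile was at least 89.9 in all 15 libraries, and its summits lay within 38 bp of that of the strongest peak. The IDR difference of the centred values was 0.98 ± 0.346 (SE, limma, adjusted p = 0.0960) and that of the DBD −0.58 (limma, adjusted p = 0.432). On summit height the IDR difference was 0.26 (limma, adjusted p = 0.137).

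A weak SLC4A4 region 52431 bp from the canonical start was called in 4 of 6 libraries with the HIF-2α IDR and in 0 of 6 with the HIF-1α IDR (Fisher's exact test, two-sided, p = 0.0606), the lowest p for the IDR at the 5 genes. No region there passed an unadjusted p of 0.05 for the IDR, which 1.41% of all regions did (357 of them). After adjustment 0% of all regions passed, where the smallest possible p (0.0022, Fisher's exact test) sets the same limit as for the DBD. A region 100 bp from the alternative start far inside the gene was called in 1 HIF-1α and 1 HIF-1α/2α library.

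SLC4A7, the electroneutral cotransporter, was called 331 bp upstream of its canonical start in 2 libraries, HIF-2α/1α replicate 1 at 31.6 and HIF-1α replicate 3 at 37.1 times the mean. The region 49770 bp upstream, just inside the window (chr3:27533971-27534637), was called in 11 tagged libraries: all of HIF-2α, HIF-2α/1α and HIF-1α, and HIF-1α/2α replicates 1 and 2. KIN and WT gave none. Its heights were 70.3, 155 and 98.7 for HIF-2α, 65.4, 243 and 92.3 for HIF-2α/1α, 75.9, 180 and 165 for HIF-1α, and 60.9 and 98.7 for HIF-1α/2α. The lines overlapped, and the call against WT did not pass (adjusted p = 0.238, exact).

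**Figure D4:**
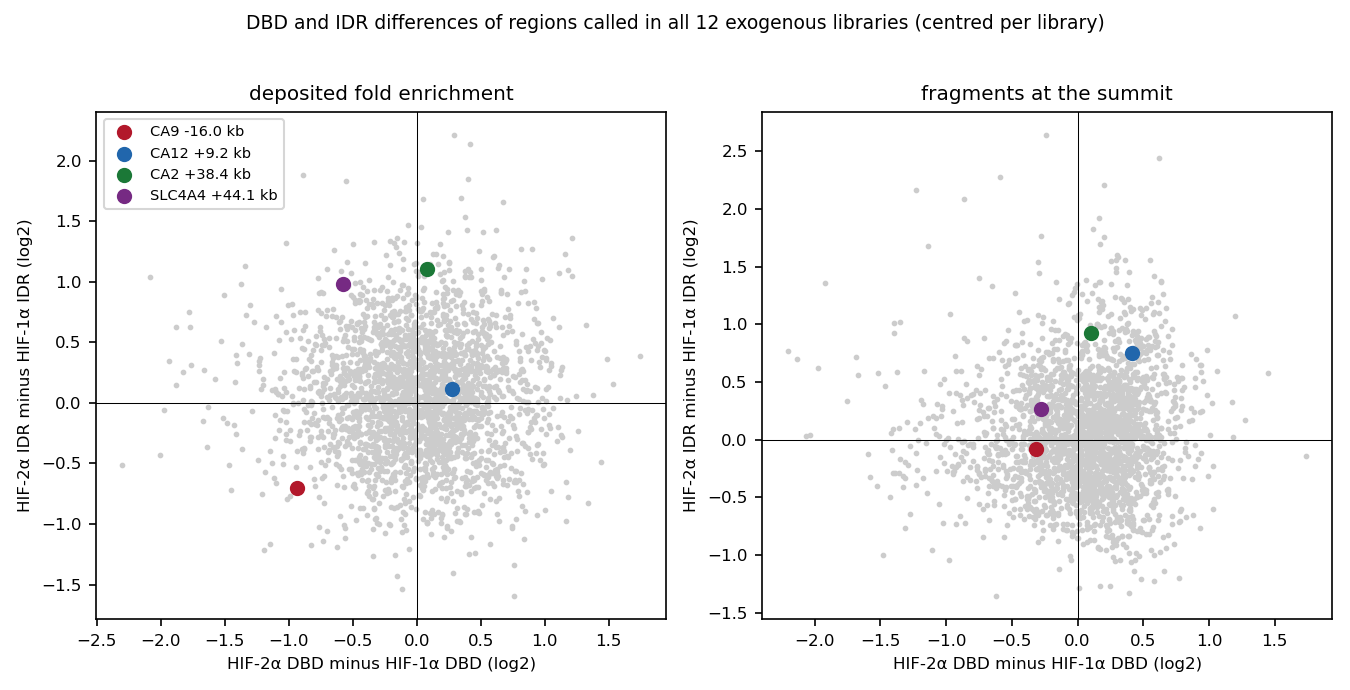
Differences between lines in log2 units for regions called in all 12 exogenous libraries, with the DBD difference on the x axis and the IDR difference on the y axis, both HIF-2α minus HIF-1α, by fold enrichment and by summit height. Grey points are all 2566 regions and coloured points those of CA9, CA12, CA2 and SLC4A4. By fold enrichment CA2 lies at 1.11 and SLC4A4 at 0.98 on the y axis, and the CA9 upstream region at −0.93 on the x axis and −0.71 on the y axis.

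Exogenous and endogenous HIF-2α did not differ past the threshold at the 4 regions that could be tested. HIF-2α minus HIF-2α KIN ran from −1.10 at the CA9 upstream region (95% interval −2.03 to −0.16) to 0.58 at SLC4A4 (−0.35 to 1.51), with the lowest adjusted p at 0.329 (limma), while 0.885% of regions passed. With single libraries left out the first ranged from −1.65 (without HIF-2α KIN replicate 1) to −0.34 (without HIF-2α replicate 1) and the second from 0.19 (without HIF-2α replicate 2) to 0.86 (without HIF-2α replicate 3), none past the threshold. The interaction of IDR and DBD at the CA9 upstream region was −1.85 and did not pass (limma, adjusted p = 0.758), and it was −1.10 without HIF-2α replicate 1 (limma, adjusted p = 0.989). For this interaction 0% of regions passed, and 132 had an unadjusted p under 0.05 in limma.

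Across the 15 tagged libraries, the promoters whose centred log2 fold most resembled these regions were taken from up to 465 promoters called in all of them. For the SLC4A4 region they were PGK1 (r = 0.79), a glycolytic enzyme gene, TAF12 (0.72) and CPOX (0.61). The CA2 region resembled TRIM33 (r = 0.75), MAP3K2 (0.72) and SPIDR (0.68), and the CA12 intron region BHLHE40 (r = 0.71), a hypoxia-induced repressor, NGLY1 with OXSM (0.68) and FUT11 (0.66). The CA9 upstream region resembled PGM1 (r = 0.69), RUNX1 (0.67) and KDM4C (0.59). The median correlation over all candidates was between −0.18 and 0.05, and the points share library depth and local background, so these values are descriptions only.

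Among 57 other genes of acid and bicarbonate handling, a peak was present in the window, in at least 2 of 3 libraries of a line, for 6 with WT cells (6.25% of all protein-coding genes), 30 with HIF-2α KIN (38.6%), 31 with HIF-2α (43.8%), 43 with HIF-2α/1α (66.4%), 41 with HIF-1α (68.3%) and 39 with HIF-1α/2α (59.5%). As shares of the list these were 10.5%, 52.6%, 54.4%, 75.4%, 71.9% and 68.4%. All 5 members had such a peak in every exogenous line, 4 in HIF-2α KIN and 1, CA12, in WT. In all 15 tagged libraries, 11 of the 57 (19.3%) had a peak in the window. Named after their values were seen, the lactate exporter SLC16A3 was called at its promoter in 15 tagged libraries and 1 WT library, its chaperone BSG in 14 and 0, the lactate carrier SLC16A1 in 13 and 0, and the anion exchanger SLC4A2 in 12 and 1. The list was not tested against other genes.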

How the data were processed

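Cut&Run used an antibody against V5 or mouse IgG, in 36 samples from 6 lines with 3 replicates each. The authors aligned paired-end fragments of 10 to 700 bp to hg38 with Bowtie2 version 2.3.4.1, handled alignments with SAMtools version 1.8, called peaks for each anti-V5 library with MACS2, its control being the IgG library with the same line and replicate number (q-value 0.01, maximum gap 400 bp, duplicates kept) and removed blacklisted regions with bedtools version 2.28.0. The MACS2 version is not given in the sources used here. Replicates were not pooled. The 18 lists, as deposited by the authors, give for each peak the fold enrichment and −log10 values of p and q at the summit. The fold is a ratio of fragments to local background with the same small constant added to both. It is therefore lower than the plain ratio, most so where the background is low. The 18 IgG samples have no list of their own here.

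Groups and replicate numbers came from the sample labels. The members and the gene lists were chosen with earlier results of these data known. Gene bodies came from GENCODE release 44. Overlapping peaks (at least 1 bp) present in at least 2 libraries formed regions, the summit of a region being that of its strongest peak. Fragments at the summit and the depth were solved from the fold and the −log10 p. Whole fragments matched 100% of the peaks with a −log10 p under 100, within 0.001. In HIF-2α/1α replicate 2 the authors' software had scaled the pileup by 0.949.

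Calls were compared by Fisher's exact test, two-sided, with Benjamini-Hochberg adjustment over all regions, and the IDR and DBD tests left out regions called in 2 or more WT libraries. Log2 fold enrichment, centred on the median of each library, was fitted with limma version 3.58.1 in R version 4.3.3 over the 2566 regions called in all 12 exogenous libraries (1694 for HIF-2α against HIF-2α KIN). The threshold was an adjusted p of 0.05. The scripts, in Python 3.11.15 with NumPy 2.4.6, pandas 2.3.3 and SciPy 1.17.1, were tested on simulated data. Regions were named if they lay within 1 kb of a member's start site, led their gene, were called in at least 12 tagged libraries or had an unadjusted p under 0.05.

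Replicate numbers do not mark a known shared day. Replicate 2 nevertheless had the longest list in every line, from 9508 peaks in WT to 20808 in HIF-2α/1α. Deviations from the mean of the line had a median correlation of 0.0748 in 18 same-numbered pairs of exogenous libraries, not all above 0.1. In 36 pairs with different numbers the median was −0.0540. The main fits took the samples to share only a number, and whether same-numbered libraries were processed together was not tested. The replicate block below allows for it. Alternatives were the window size, a −log10 q of at least 5, shortened lists, a stricter region definition, another merging overlap, other measures of strength, no centring, a variance trend, other region filters, a replicate block and leaving out each library. The values of 1 gene of the wider list of acid and bicarbonate handling genes are not reported here, though it is included in the counts over that list.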

Additional observations from a re-analysis of the deposited data

How the results depend on the processing

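The mean number of regions called per tagged library was 12.5, and 8.60 with a window of 10 kb, 8.07 with the gene body alone and 5.73 with shortened lists. Under each of these 3 settings 1 region, not 3, was called in all tagged and no WT libraries. Genes with a window peak in at least 2 of 3 libraries of every tagged line were counted over the 57 other genes and the 5 members together. Their number fell from 30 to 15, 12 and 16 in the same order. For the shortened lists, those longer than the shortest tagged list were cut to its length, WT replicate 2 included, and the CA9 promoter then had 4 calls with the HIF-1α DBD against 0 (exact p = 0.0606). Leaving out 1 library gave 11.9 to 12.9 regions per library, 3 to 4 shared regions and 5 to 6 calls of the CA9 promoter. Past the test against WT were 0 to 4 regions (0 without any 1 WT library, where the smallest possible p is larger). Genes with a window peak in every tagged line then numbered 17 to 30 (17 without HIF-2α KIN replicate 2 and 19 without replicate 3). For this count a line with 1 library left out still needed a peak in 2, so in both that remained, which is a stricter rule.

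With limma, 0 regions of the 5 genes passed for the IDR. With a replicate block 1 passed (CA2), with the rank score 1 (CA2) and with summit height 2 (CA2 and CA12), and leaving out 1 library gave 0 to 1 (CA2 without HIF-2α replicate 3, HIF-2α/1α replicate 2 or HIF-2α/1α replicate 3, SLC4A4 without HIF-1α replicate 2). Over all 2566 regions, 535 passed for the IDR by rank score and 1119 by summit height. Without centring the CA2 difference for the IDR fell to 0.82 (limma, adjusted p = 0.409). For the DBD 0 regions of the 5 genes passed, and 1 with summit height (CA12), among 784 of all regions. The replicate block moved calls over all regions from 62 to 109 (IDR) and from 82 to 118 (DBD), and gave p = 0.00926 (exact, within replicate numbers) for the CA9 promoter. Same-numbered libraries of different lines had correlations of 0.0299 to 0.2 over 18 pairs, and those with different numbers −0.117 to 0.0649 over 36.

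The CA9 upstream difference between HIF-1α and HIF-2α also missed the threshold without centring (1.91, limma, adjusted p = 0.188), with no WT filter (1.63, adjusted p = 0.0502) and without HIF-1α replicate 1 (1.27), HIF-1α replicate 2 (1.77) or HIF-1α/2α replicate 3 (1.64). Over single libraries left out it ranged from 0.83 to 2.12. Directions that turned, none past the threshold, were those of CA12 for the IDR (−0.18 without centring, and −0.26 to 0.42 with libraries left out), CA12 for the DBD (−0.034 to 0.66), CA2 for the DBD (−0.14 to 0.31), SLC4A4 for HIF-1α minus HIF-2α (0.080 by rank, 0.017 by height, and −0.84 to 0.019), CA12 for HIF-2α minus KIN (0.28 by rank, 0.16 by height and 0.23 without centring) and CA2 for HIF-2α minus KIN (0.037 by height, 0.42 without centring, and −0.51 to 0.23). Without centring the median of all regions moved from 0.05 to −0.24 for the IDR and from −0.05 to 0.22 for HIF-1α minus HIF-2α. The test of the CA9 promoter under the alternatives and the fit with no WT filter were chosen after seeing the data. The causes were not tested.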
